A study of Mus musculus with 3 samples.

Results

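Gfi1 and Gfi1b are related zinc-finger repressors of blood cells, and the regions described here are the called peaks of 2 histone marks around their genes in hematopoietic stem cells of old mice. The members were every H3K27ac or H3K4me1 region overlapping a window set for Gfi1 on chromosome 5 from 108100000 to 108200000 or a window set for Gfi1b on chromosome 2 from 28430000 to 28510000 (mm9, counted from 1). They numbered 8 of the 93413 H3K27ac regions and 33 of the 155027 H3K4me1 regions, or 41 of 248440 in all. The cells were SP-KSL-CD150+ stem cells from bone marrow of C57BL/6 mice aged 24 months, and these libraries hold no other age, strain or condition. H3K27ac and H3K4me1 were each profiled by chromatin immunoprecipitation sequencing in 1 library, labelled as a technical replicate of biological replicate 1. With a single library per mark, differences could not be checked in replicates and carry no p-value. The accompanying input library was not analysed here, and peak lists hold no expression values with which to check the sorted cells.

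Gfi1 and Gfi1b both carry an N-terminal SNAG domain that recruits histone demethylases and deacetylases, and both bind DNA through zinc fingers that recognise an AATC core. Gfi1 is known for restraining stem cell division and for its part in granulocyte and lymphoid development, and Gfi1b for its part in red cell and platelet development. Each is known to repress its own gene and that of the other. H3K27ac is an acetylation that marks promoters and enhancers in use. H3K4me1 is a methylation found at enhancers, whether or not they are acetylated, and beside active promoters.

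The promoters of both genes are shown because the AATC core is the sequence that the proteins are known to bind at their own genes. The sequences are those of RefSeq on build GRCm38.p6, from 250 bases before to 50 bases after a transcription start on the minus strand, and their positions cannot be set beside the mm9 regions below. Capitals mark AATC on either strand (GATT on the printed strand).
Gfi1, chr5:107725756-107726055, GRCm38.p6, minus strand: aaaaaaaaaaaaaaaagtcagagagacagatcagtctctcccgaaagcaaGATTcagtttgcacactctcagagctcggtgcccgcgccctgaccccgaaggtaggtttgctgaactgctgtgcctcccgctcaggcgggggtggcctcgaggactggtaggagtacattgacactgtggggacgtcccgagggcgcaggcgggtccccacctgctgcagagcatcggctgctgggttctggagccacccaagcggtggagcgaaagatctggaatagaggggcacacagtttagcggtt
Gfi1b, chr2:28621933-28622232, GRCm38.p6, minus strand: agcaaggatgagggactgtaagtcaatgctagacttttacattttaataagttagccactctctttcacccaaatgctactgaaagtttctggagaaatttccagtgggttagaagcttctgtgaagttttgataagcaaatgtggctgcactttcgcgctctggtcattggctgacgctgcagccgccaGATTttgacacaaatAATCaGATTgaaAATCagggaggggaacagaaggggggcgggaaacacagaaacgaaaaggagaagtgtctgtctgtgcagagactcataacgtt
This Gfi1 promoter held 1 AATC match, and the promoter of the other Gfi1 start in the table held 0. The Gfi1b promoter held 4, which do not overlap each other and begin 60, 45, 40 and 33 bases before the start. AATC was present in 73.1% of the 32851 promoters of 300 bases, and 89.9% of them held fewer than 4 matches. GATA, the core bound by GATA factors, was in neither Gfi1 promoter on either strand and had 1 match at Gfi1b, where 57.9% of all promoters held at least 1. The Gfi1 promoter shown had 16 CG dinucleotides and a GC content of 58.0%, and the Gfi1b promoter had 7 CG dinucleotides and 44.3% GC. The promoter of the other Gfi1 start had 10 CG dinucleotides and 58.0% GC. The medians over all promoters were 7 CG dinucleotides and 52.7% GC. These matches describe letters and not bound sites.

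H3K4me1 covered much more of both windows than H3K27ac did, with the larger contrast at Gfi1. H3K27ac covered 1.11 kb (1.11%) and H3K4me1 31.6 kb (31.6%) of the Gfi1 window of 100 kb. H3K27ac covered 5.25 kb (6.57%) and H3K4me1 33.1 kb (41.4%) of the Gfi1b window of 80 kb. These covers were set beside those of all other windows of the same length laid end to end along the 19 autosomes. Gfi1 had more H3K4me1 than 96.2% and more H3K27ac than 60.6% of 24694 windows of 100 kb. Gfi1b had more H3K4me1 than 98.2% and more H3K27ac than 89.6% of 30869 windows of 80 kb. Many of these windows were empty. No H3K27ac was called in 39.1% of the windows of 100 kb and 42.6% of those of 80 kb, and no H3K4me1 in 31.2 and 34.2%. The median H3K27ac covers of all these windows were 0.46 and 0.37%.

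Against windows of similar or greater H3K4me1 cover, both loci were poor in acetylation. The 1.11% H3K27ac cover of Gfi1 compared with a median of 14.1% (quartiles 10.19 and 19.03%) in the 950 windows with at least as much H3K4me1, of which the least acetylated had 1.73%. The 6.57% of Gfi1b compared with a median of 18.9% (quartiles 13.5 and 25.1%) in the 551 windows with at least as much H3K4me1, of which 17 (3.09%) had no more H3K27ac. Among the 1142 windows with an H3K4me1 cover within 20% of that of Gfi1, the median was lower, 9.94% (quartiles 7.43 and 13.1%). Of these, 4 had no more H3K27ac than Gfi1. Among the 863 windows within 20% of Gfi1b, the median was 13.6% (quartiles 9.78 and 17.4%), and 73 had no more H3K27ac than Gfi1b. Windows include assembly gaps, and these shares describe the 2 libraries only.

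**Figure D1:**
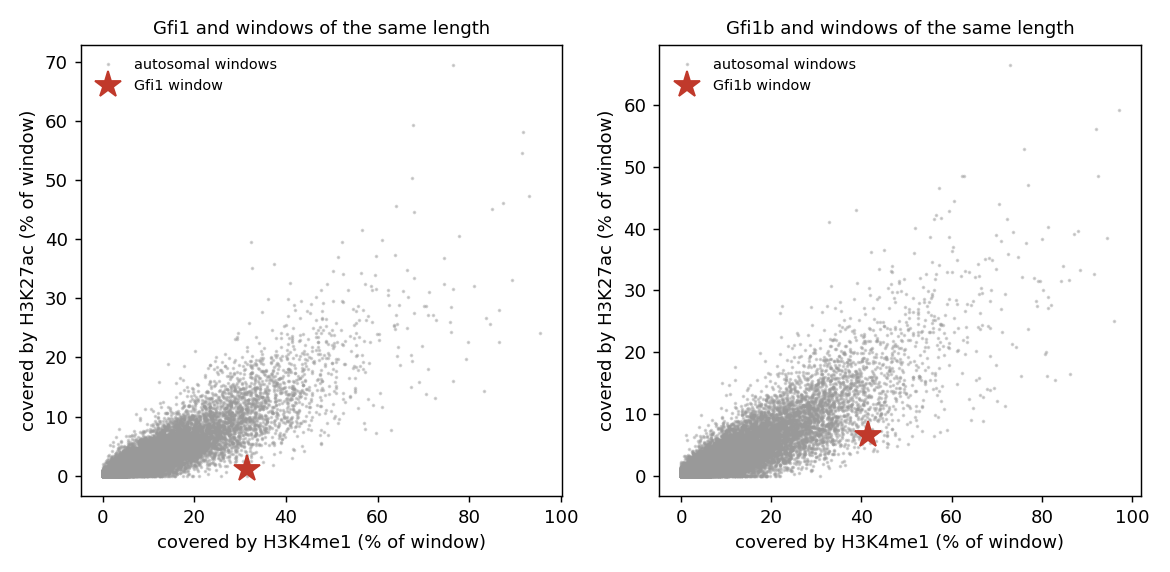
Share of each autosomal window covered by H3K4me1 (x axis, %) and by H3K27ac (y axis, %), with grey points for windows of the same length and a red star for the Gfi1 window (left, 100 kb) or the Gfi1b window (right, 80 kb). The Gfi1 star, at 1.11% H3K27ac and 31.6% H3K4me1, lies at the lower edge of the cloud, and the Gfi1b star, at 6.57% H3K27ac and 41.4% H3K4me1, lies low within it.

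The Gfi1 window held 2 H3K27ac regions, 50.3 kb apart from summit to summit. The stronger lay from 108178224 to 108179065, was 842 bp wide, and had a 6.79-fold summit, above 84.4% of all H3K27ac regions. Each fold here is the peak caller's value as deposited by the authors, taken as (reads + 1)/(local background + 1). Its summit held 26 reads (exact 95% Poisson interval 17.0 to 38.1), and its local background was 1.25 times the genome-wide level of 2.38 reads. The other 7 H3K27ac regions of both windows had the genome-wide background, so 1 of 8 had a raised background (over 5% above that level), against 26.2% of all H3K27ac summits. The weaker Gfi1 region lay from 108127994 to 108128258, was 265 bp wide, and had a 4.14-fold summit of 13 reads (interval 6.92 to 22.2), equal to the median of 13 over all H3K27ac summits. Poisson intervals account for counting error alone and not for spread between libraries. The reads carry no molecular identifiers and may share a molecule, which the intervals do not allow for. The 49.97 kb between these regions carried no called H3K27ac. The next H3K27ac regions outside the window lay 24.2 kb below its lower edge (3.39-fold) and 61.8 kb above its upper edge (2.66-fold).

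The Gfi1b window held 6 H3K27ac regions in 3 places, namely a lone region, a cluster of 4 and the strongest region of either locus. The lone region lay from 28437942 to 28438825 and had a 5.32-fold summit of 17 reads (interval 9.90 to 27.2). The clustered regions lay between 28453267 and 28458335. From the lower coordinate upwards their summits were 4.43-fold (14 reads), 5.91-fold (19 reads), 3.25-fold (10 reads) and 4.73-fold (15 reads), and their widths were 411, 921, 458 and 1032 bp. The read intervals of these 4 summits overlapped, so no order among them was detectable at this depth. The strongest region lay from 28496069 to 28497616, was 1548 bp wide, and had a 12.7-fold summit of 42 reads (interval 30.3 to 56.8), above 95.3% of all H3K27ac regions in fold. Its read interval lay above those of the other 5 Gfi1b regions, and its summit stood 39.3 kb from the nearest of them. The next H3K27ac regions outside the window lay 34.6 kb below its lower edge (5.02-fold) and 27.9 kb above its upper edge (3.55-fold).

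**Figure D2:**
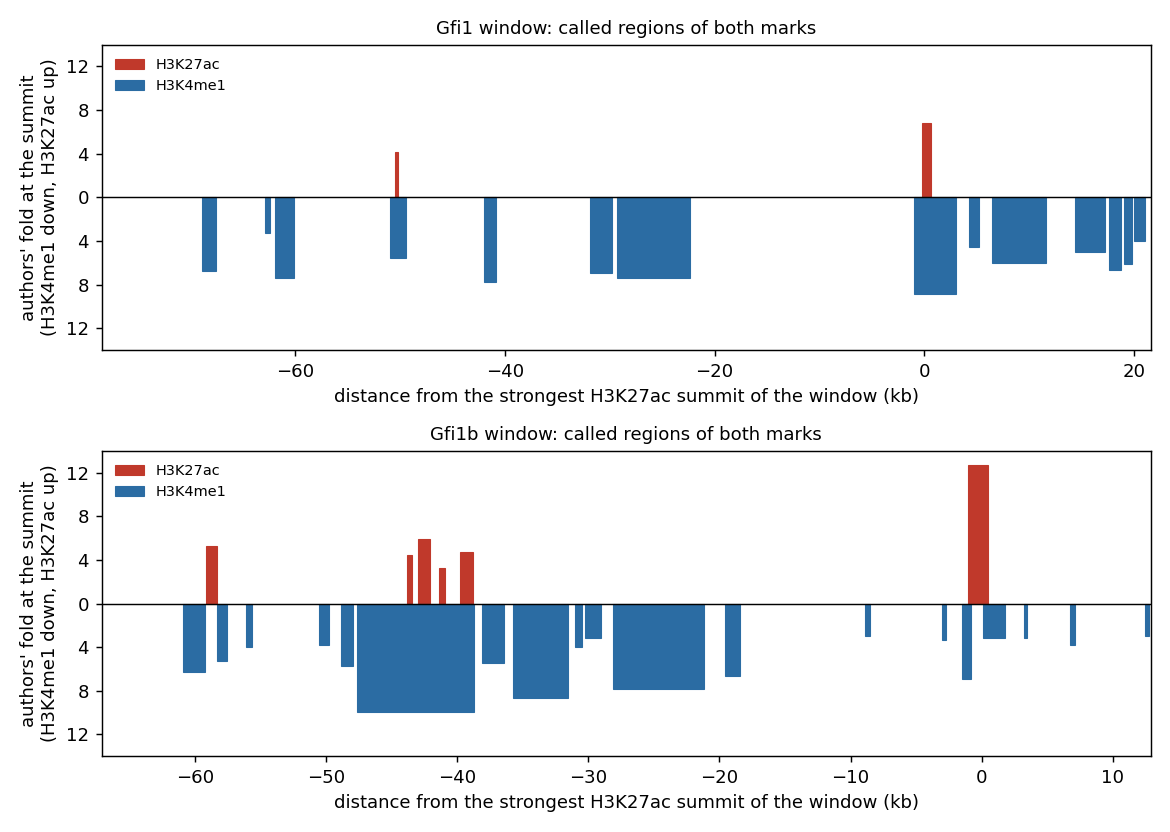
Called regions in the Gfi1 window (upper panel) and the Gfi1b window (lower panel) by distance in kb from the strongest H3K27ac summit of each window. Bar widths are region widths and bar heights the authors' fold at the summit, with H3K27ac upwards in red and H3K4me1 downwards in blue. Gfi1 has 2 red and 14 blue bars and Gfi1b 6 red and 19 blue bars, and most blue bars have no red bar above them.

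The strongest H3K27ac summit was lower in the Gfi1 window than in the Gfi1b window, with a ratio of 0.53 in fold and 0.62 in summit reads. The local background, which enters the fold, was 1.25 times the genome-wide level at the Gfi1 summit and at that level at the Gfi1b summit. The read intervals overlapped (17.0 to 38.1 in the Gfi1 window and 30.3 to 56.8 in the Gfi1b window). The order turned on the 12.7-fold region, which ended 12.4 kb from the upper edge of the Gfi1b window. With 20 kb taken off each side of both windows that region fell outside, the strongest Gfi1b summit was 5.91-fold and the ratio was 1.15. No region is assigned to a gene, because no mm9 annotation was used here. In the RefSeq gene table of GRCm38.p6 the protein-coding neighbours of Gfi1 are Rpap2 and Evi5, and those of Gfi1b are Gtf3c5 and Tsc1. Gtf3c5 is on the lower side of Gfi1b, and Tsc1 on the higher side. Where the 12.7-fold region lies relative to these genes was not determined. Regions of a window may therefore belong to a neighbouring gene, which was not tested.

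At Gfi1, H3K4me1 formed 14 regions with a median summit of 6.41-fold, against 4.12-fold over all H3K4me1 regions, and a median width of 1472 bp, against 687 bp. Summit reads ranged from 16 to 41 with a median of 32, against a median of 20 over all H3K4me1 summits. The strongest region lay from 108177449 to 108181483 (8.85-fold, 41 reads, interval 29.4 to 55.6) and was 4035 bp wide. It held the stronger H3K27ac region of the window. The next by fold lay from 108136421 to 108137566 (7.79-fold, 36 reads), from 108116502 to 108118350 (7.37-fold, 34 reads), from 108149094 to 108156120 (7.37-fold, 34 reads) and from 108146549 to 108148683 (6.95-fold, 32 reads). Their read intervals overlapped that of the strongest region. None of these 4 met H3K27ac. The widest, from 108149094 to 108156120, spanned 7027 bp and was wider than 99.2% of all H3K4me1 regions. Above it, 21.3 kb carried neither mark, up to the region with the strongest summit.

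At Gfi1b, H3K4me1 formed 19 regions that were more mixed in strength, with a median summit of 4.0-fold, a lowest of 2.95-fold and a highest of 9.90-fold. The median width was 793 bp, and summit reads ranged from 13 to 46 with a median of 21. The strongest and widest lay from 28449465 to 28458399, spanned 8935 bp, had a 9.90-fold summit of 46 reads (interval 33.7 to 61.4), and contained the whole cluster of 4 H3K27ac regions. Its summit lay 10 bp from the summit of the 5.91-fold H3K27ac region, the closest meeting of summits in either window. The next by fold lay from 28461390 to 28465543 (8.64-fold, 40 reads, 4154 bp wide), from 28468996 to 28475953 (7.79-fold, 36 reads, 6958 bp wide), from 28495627 to 28496338 (6.95-fold, 32 reads) and from 28477524 to 28478705 (6.64-fold, 43 reads). Of these 4, the region from 28495627 to 28496338 met H3K27ac and the other 3 did not. At the region from 28477524 to 28478705 the local background was raised to 1.5 times the genome-wide 3.75 reads. Raised backgrounds were found at 5 of 14 H3K4me1 summits at Gfi1 and 3 of 19 at Gfi1b, against 36.8% of all H3K4me1 summits. H3K4me1 was sparser towards the upper end of the window, with 9.54 kb free of both marks from 28478706 to 28488242.

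**Figure D3:**
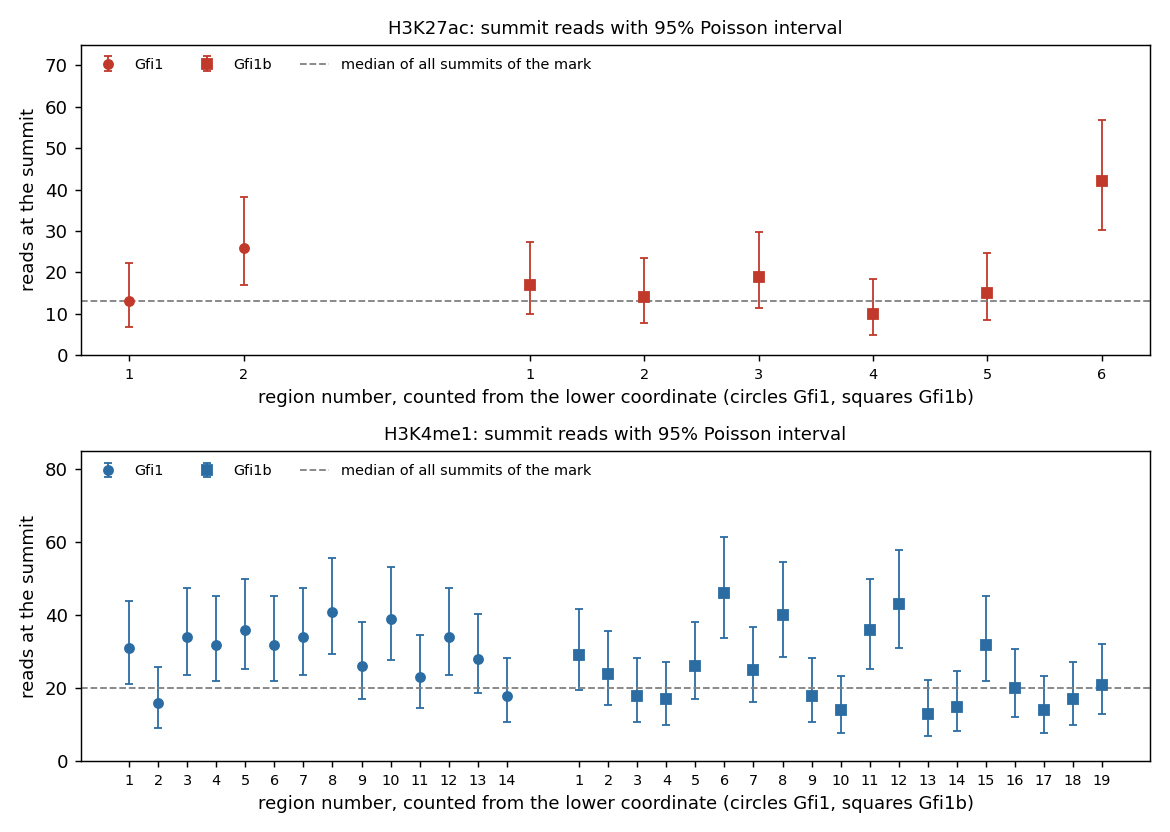
Reads at the summit of each region, with exact 95% Poisson intervals, for H3K27ac (upper panel) and H3K4me1 (lower panel), with Gfi1 regions as circles on the left and Gfi1b regions as squares on the right, numbered from the lower coordinate. The dashed lines are the medians of all summits of the mark, 13 reads for H3K27ac and 20 for H3K4me1. At Gfi1b the sixth H3K27ac region, with 42 reads, stands above the other 5.

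Acetylated regions at these loci mostly carried H3K4me1, whereas few H3K4me1 regions were acetylated. Of the H3K27ac regions, 2 of 2 at Gfi1 and 5 of 6 at Gfi1b shared at least 1 bp with H3K4me1, or 7 of 8 in all (87.5%, exact 95% interval 47.3 to 99.7%), against 71.7% of all H3K27ac regions. That share is within the counting error of the background. Of the H3K4me1 regions, 2 of 14 at Gfi1 (14.3%) and 3 of 19 at Gfi1b (15.8%) met H3K27ac, or 5 of 33 in all (15.2%, interval 5.11 to 31.9%), against 33.6% of all H3K4me1 regions. Neighbouring regions of 1 library are not independent samples, and the intervals do not allow for that. By length, H3K27ac lay on 3.50% of the H3K4me1 at Gfi1 and 10.4% at Gfi1b, or 7.05% over both, against 21.2% over all H3K4me1 regions.

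The lack of called acetylation extended to most wide H3K4me1 regions and most regions of 6-fold to 8-fold, although such regions elsewhere usually carried it. Of the H3K4me1 regions of 5 to 10 kb, 0 of 2 at Gfi1 and 1 of 2 at Gfi1b met H3K27ac, against 95.5% of the 2700 such regions in the whole list. Of those of 2 to 5 kb, 1 of 3 at Gfi1 and 0 of 1 at Gfi1b did, against 75.8%. Of those of 1 to 2 kb, 1 of 6 and 1 of 5 did, against 50.2%, and of those under 1 kb, 0 of 3 and 1 of 11, against 18.1%. By strength, 0 of 8 Gfi1 regions and 1 of 4 Gfi1b regions of 6-fold to 8-fold met H3K27ac (1 of 12 in all, interval 0.211 to 38.5%), against 65.6% of all such regions. From 8-fold to 10-fold 1 of 1 and 1 of 2 did (2 of 3 in all, interval 9.43 to 99.2%), against 82.3%, a share within counting error. From 4-fold to 6-fold 1 of 4 and 0 of 5 did, against 37.7%, and under 4-fold 0 of 1 and 1 of 8, against 13.6%. The width classes hold so few members that the interval of each runs wide, for example 0.631 to 80.6% for 1 of 4 regions of 5 to 10 kb. Only that class and the class of 6-fold to 8-fold had an interval that left out the share of all such regions. In every other class of width or fold, the share of both windows together was within counting error. Width and fold classes divide the same 33 regions and are not separate observations.

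**Figure D4:**
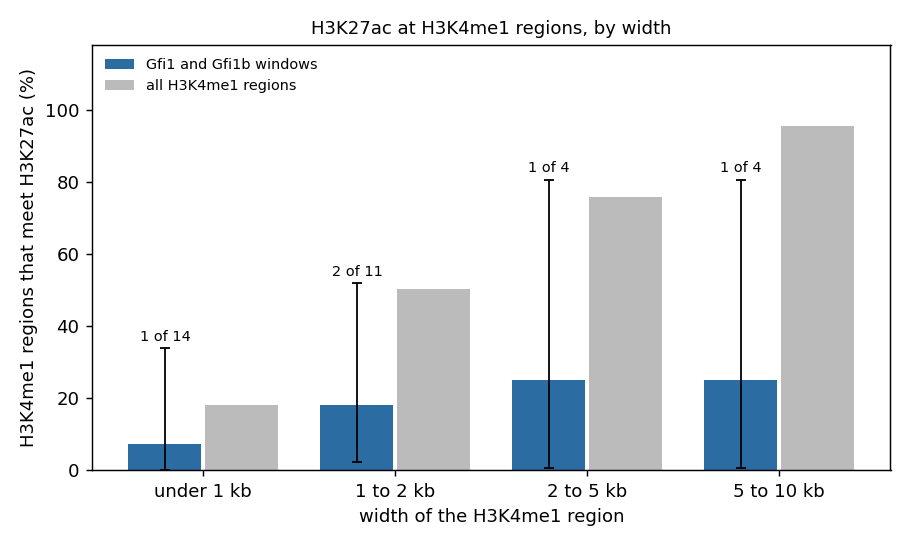
Share of H3K4me1 regions that meet H3K27ac (y axis, %) by width of the H3K4me1 region, for both windows together (blue, with exact 95% intervals and counts) and for all H3K4me1 regions (grey). The blue bars run from 7.14% under 1 kb to 25% at 5 to 10 kb, and the grey bars from 18.1% to 95.5%. Only at 5 to 10 kb does the grey value lie outside the interval of the blue bar.

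Each of the 3 unacetylated regions of 5 to 10 kb was of 6-fold to 8-fold, a class in which 91.7% of 726 regions met H3K27ac. Ranked by width among the 102942 H3K4me1 regions without H3K27ac, the Gfi1 region from 108149094 to 108156120 was number 18 and the Gfi1b region from 28468996 to 28475953 was number 21. The Gfi1 region from 108184853 to 108190033 (5181 bp, 6.04-fold, 39 reads, local background 1.5 times the genome-wide level) was number 106. The nearest called H3K27ac lay 20835 bp from the first of these, 10660 bp from the second and 5787 bp from the third. The strongest H3K4me1 region without H3K27ac was the 8.64-fold one at Gfi1b from 28461390 to 28465543, 3054 bp from the cluster of 4. At Gfi1 it was the 7.79-fold region from 108136421 to 108137566, 8162 bp from the weaker H3K27ac region. No H3K27ac summit under 8 reads was called anywhere, so acetylation below that level was not detectable at this depth.

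H3K4me1 was arranged around the acetylated summits in more than one way. Both H3K27ac summits at Gfi1 and the 4 clustered summits at Gfi1b lay inside an H3K4me1 region, or 6 of 8 in all, against 58.2% of all H3K27ac summits. At the weaker Gfi1 summit H3K4me1 ended within 1 kb on both sides, in a region of 1594 bp. At the stronger Gfi1 summit it reached 1 kb on the upper side but not on the lower.

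The remaining H3K27ac summits, the lone and the strongest of Gfi1b, lay in gaps of H3K4me1 with H3K4me1 at 1 kb on either side. This arrangement was found at 0 of 2 Gfi1 summits and 2 of 6 Gfi1b summits, or 2 of 8 in all (25%, interval 3.19 to 65.1%). It was found at 5.85% of all H3K27ac summits, so the share is within the counting error of the background. The lone region filled a gap of 934 bp from 28437895 to 28438828 almost exactly, with 47 bp free on the lower side and 3 bp on the upper side. It was the H3K27ac region counted above as without H3K4me1, and it counted as with H3K4me1 when regions within 1 kb were taken as meeting. Among all summits of 4-fold to 6-fold, the class of this region, 2.78% had the arrangement, against 1 of 5 in these windows (interval 0.505 to 71.6%). The strongest region spanned a gap of 913 bp from 28496339 to 28497251 and overlapped both H3K4me1 regions beside it, by 635 bp in all. Its summit lay 130 bp from the nearer of them. It was the only summit of 10-fold to 20-fold in these windows, and 33.6% of all such summits had the arrangement.

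Few gaps in H3K4me1 held acetylation, at these loci and elsewhere. Of the gaps of up to 2 kb between neighbouring H3K4me1 regions that lay wholly inside a window, 0 of 7 at Gfi1 and 2 of 13 at Gfi1b held an H3K27ac summit, or 2 of 20 in all (10%, interval 1.23 to 31.7%), against 15.2% of all 74813 such gaps. That share is within the counting error of the background. The longest of these gaps at Gfi1b, 1570 bp from 28475954 to 28477523, parted the region of 6958 bp from the one of 1182 bp and had no H3K27ac region touching it. The longest at Gfi1, 1218 bp from 108181484 to 108182701, had none either.

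**Figure D5:**
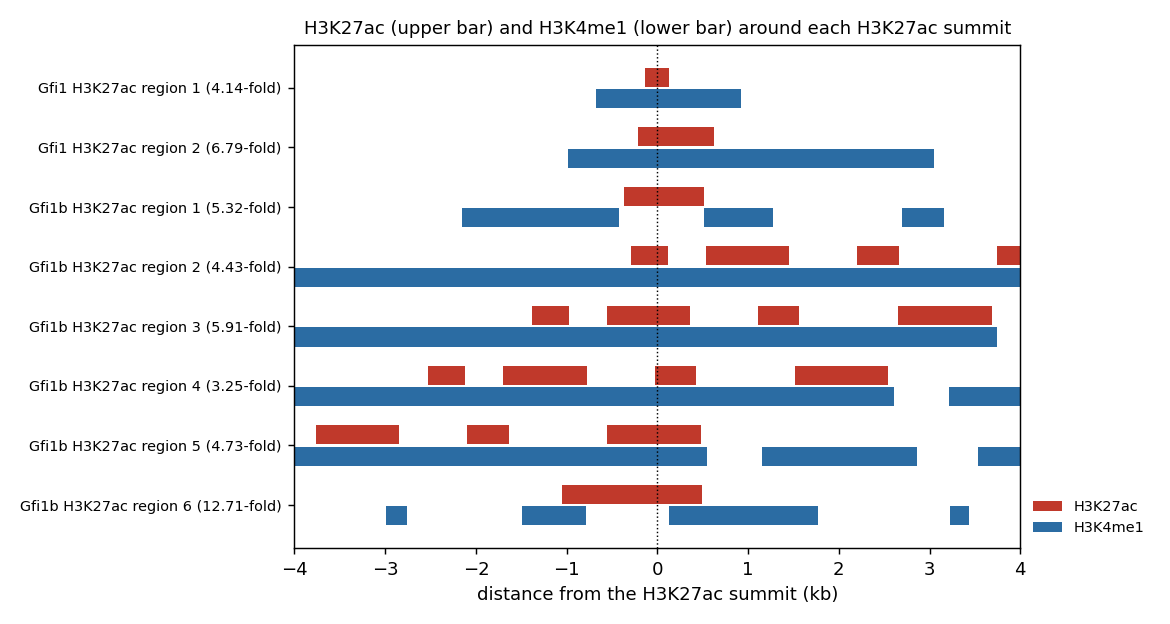
H3K27ac (red, upper bar of each row) and H3K4me1 (blue, lower bar) within 4 kb of each H3K27ac summit, by distance in kb, with the 2 Gfi1 regions above the 6 Gfi1b regions. Blue covers the summit in 6 rows, and at the 5.32-fold and 12.7-fold regions of Gfi1b the summit falls in a gap between blue bars.

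In acetylated length, the largest joined H3K27ac domain exceeded 54.2% of all domains at Gfi1 and 84.3% at Gfi1b. H3K27ac regions up to 12500 bp apart were joined into 30221 domains, ranked by acetylated length. The Gfi1 regions stayed apart as domains of 842 bp (rank 13835) and 265 bp (rank 23867). At Gfi1b the cluster of 4 formed a domain of 5.07 kb with 2.82 kb acetylated (rank 4754, within the top 15.7%), and H3K4me1 covered all of its span. The strongest and the lone Gfi1b region were domains of their own, of 1548 bp (rank 9051) and 884 bp (rank 13466).

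No region was cut by a window edge, but H3K4me1 went on beyond the upper edge at Gfi1. The last H3K4me1 region inside the Gfi1 window ended 543 bp from its upper edge (4.0-fold), and the next began 769 bp beyond it (6.53-fold). With 20 kb added on each side, the Gfi1 window held 23 H3K4me1 regions and still 2 H3K27ac regions, and the Gfi1b window held 20 H3K4me1 and 6 H3K27ac regions. The last H3K4me1 region inside the Gfi1b window ended 123 bp from its upper edge (3.0-fold), and the next lay 43.4 kb beyond.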

How the data were processed

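Groups were taken from the sample titles: 1 H3K27ac, 1 H3K4me1 and 1 input library. Per the labels' protocols, sonicated chromatin was immunoprecipitated and sequenced from ThruPLEX libraries. The submitters' processing notes name Bowtie2 2.0.6, the caller MACS2 2.0.10.20131216 and build mm9, and their options, filters and control are not given in the sources used here. Each deposited list gives, per region, position, summit, the authors' fold (a ratio to the local background) and the deposited −log10 p and −log10 q. The deposited score, 10 times −log10 q cut to a whole number, was not used.

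Summit reads and local background were recovered from fold and −log10 p, taking fold as (reads + 1)/(background + 1) and p as the Poisson probability of more reads. Whole reads returned the deposited −log10 p to within 0.001 at every one of the 93413 summits of H3K27ac and the 155027 of H3K4me1. The recovery was run again on fold and p rebuilt from its own recovered reads and background, which is not an independent check. The overlap functions were tested on random intervals. A background above 1.05 times the genome-wide level was called raised, at 26.2% of H3K27ac and 36.8% of H3K4me1 summits. Depth is not given as read totals, and the median summit held 13 H3K27ac and 20 H3K4me1 reads.

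Regions met when they shared at least 1 bp, and shares have exact Clopper-Pearson 95% intervals. Named in full were, per window and mark, the 5 regions of highest fold and the widest, any H3K27ac region of 10-fold or more, and, without the other mark, the strongest H3K27ac region and the 3 strongest H3K4me1 regions. The members, classes and lists were chosen with earlier results of these data known, and the classes of width and fold, the gaps and the matched windows after seeing the data. No gene was assigned to a region, since the gene table is of another build. Calculations used scipy 1.17.1, pandas 2.3.3 and numpy 2.4.6 under Python 3.11.15, with figures by matplotlib 3.10.9.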

Additional observations from a re-analysis of the deposited data

How the results depend on the processing

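Of 152 alternative values for 27 results, 122 stayed within the counting interval (shares) or a factor of 1.5 (other values), 29 moved and 1 reversed. These counts do not measure stability. Intervals of shares from few regions are wide, so a Gfi1 share of H3K4me1 regions of 40%, against 14.3%, counted as staying. A highest fold could not change under a cut that kept the strongest region. The cause of each move was not tested beyond what the setting itself removes. With 20 kb taken off each side, the ratio of the highest H3K27ac fold, Gfi1 over Gfi1b, was 1.15 (0.53 as reported), because the strongest Gfi1b region fell outside. Gfi1b then had a highest H3K27ac fold of 5.91, a median H3K4me1 fold of 6.06, 8 H3K4me1 regions and 100% of H3K27ac regions with H3K4me1, and Gfi1 had 5 H3K4me1 regions and 18.4 acetylated bp per kb. With 20 kb added, Gfi1 had 23 H3K4me1 regions.

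At a −log10 q of at least 5, Gfi1 had 1 H3K27ac region. At 10 it had 1, and Gfi1b had 1 H3K27ac region (100% with H3K4me1, 19.4 acetylated bp per kb, median fold 12.7, largest domain 1548 bp) and 9 H3K4me1 regions of median 6.64-fold, while 0% of the H3K4me1 regions of 5 to 10 kb in both windows met H3K27ac, against 25%. The Gfi1b share of H3K27ac regions with H3K4me1 was 100% within 1 kb and with regions joined over 1 kb. That joining left 9 H3K4me1 regions at Gfi1 and 10 at Gfi1b, and 0% of those of 5 to 10 kb met H3K27ac, since the region around the Gfi1b cluster then exceeded 10 kb. With equal numbers of regions, Gfi1b had 11 H3K4me1 regions. Ranking domains by fold times width put the one of 1548 bp first at Gfi1b.

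Leaving out regions of raised local background, a setting chosen after seeing the data, left Gfi1 with 1 H3K27ac region, 9 H3K4me1 regions, 2.65 acetylated bp per kb and shares of 0% in both directions, because it removed a partner from each meeting pair. The checks of the regions of 5 to 10 kb were also added after seeing the data. No paired analysis was possible because there is a single library of each mark. Depth limits the count of unacetylated regions, since the weakest H3K27ac summit called had 8 reads.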
